A study of Homo sapiens with 6 samples.

Results

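The genes examined here lie on the distal long arm of chromosome 18. All genes with their start in a fixed interval of hg19 were taken, whatever their type. The first is ZNF532, at 56529832, and the last is ENSG00000266924, at 77547121. Of the 57820 genes counted in the series, 245 had their start in this interval. TNFRSF11A and the SERPINB genes were left out (11 genes), so that 234 genes remained as members. The interval had been chosen by the log2 fold changes between FOXC1 knockout (KO) and control libraries, which had been seen to lie below zero there. The values of that contrast are therefore given as a description, without p-values for single members, and nothing is read from the counts of called members.

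The established bladder cancer cell line J82 had been sequenced for its mRNA in 3 control and 3 FOXC1 KO libraries. FOXC1 encodes a forkhead transcription factor. The KO cells had received lentiCRISPR v2 with a guide against FOXC1 and had been selected with puromycin, and the control cells carried a vector. The study's methods speak of KO clones, and whether the 3 libraries came from a single clone or from separate cultures was not given in the sources used here, so the standard errors measure only the spread between these libraries, which may be technical. DNA copy number was not measured in these libraries.

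Neighbouring genes are usually read from promoters and enhancers of their own, so that the level of each can change separately. A gain or loss of a chromosome segment, in contrast, changes the number of templates for every gene that lies on it, and the transcripts of such genes tend to move together. The distal long arm of chromosome 18 is known in carcinomas as a stretch that is often lost, and it carries genes of many kinds. Among them are BCL2 and PMAIP1, an inhibitor and a promoter of mitochondrial cell death, the cadherin gene CDH7, and CYB5A and CNDP2, which encode a haem-carrying electron donor and a dipeptidase.

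To give the sequence context of the members, their promoters were searched for a forkhead core motif, GTAAACA, which reads TGTTTAC on the other strand. RefSeq promoters of GRCh38.p14, from 250 bases before to 50 bases after a gene start, were found by symbol for 37 of the 46 members that could be tested, 54 promoters in all. The motif was present in 3 of the 54 (5.56%) and in 1202 of all 35116 promoters (3.42%). The promoters of these members were rich in G and C, with a median of 67.2% against 58.7% over all promoters. The 3 promoters with the motif belonged to MBP, ZNF407 and ZNF532, which have further promoter entries without it. They are shown with the promoter of CYB5A, the member with the lowest log2 fold change among the 6 with the highest mean counts, which lacks it. Each run holds the 250 bases before the start, 5′ to 3′, and capitals mark the motif.
MBP, chr18:77132784-77133033, minus strand: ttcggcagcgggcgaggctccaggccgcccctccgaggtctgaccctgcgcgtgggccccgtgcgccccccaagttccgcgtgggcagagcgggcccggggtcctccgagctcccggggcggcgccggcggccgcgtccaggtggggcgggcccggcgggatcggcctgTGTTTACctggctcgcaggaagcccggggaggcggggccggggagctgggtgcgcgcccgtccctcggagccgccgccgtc
ZNF407, chr18:74630713-74630962, plus strand: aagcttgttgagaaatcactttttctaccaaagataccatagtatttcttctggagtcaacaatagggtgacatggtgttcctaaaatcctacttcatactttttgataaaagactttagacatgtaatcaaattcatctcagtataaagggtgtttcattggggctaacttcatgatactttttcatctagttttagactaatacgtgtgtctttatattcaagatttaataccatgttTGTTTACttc
ZNF532, chr18:58862674-58862923, plus strand: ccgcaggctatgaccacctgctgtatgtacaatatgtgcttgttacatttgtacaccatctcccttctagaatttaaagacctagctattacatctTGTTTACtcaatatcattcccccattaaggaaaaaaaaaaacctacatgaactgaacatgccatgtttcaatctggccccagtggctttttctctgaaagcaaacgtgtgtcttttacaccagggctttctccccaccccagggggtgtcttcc
CYB5A, chr18:74291964-74292213, minus strand: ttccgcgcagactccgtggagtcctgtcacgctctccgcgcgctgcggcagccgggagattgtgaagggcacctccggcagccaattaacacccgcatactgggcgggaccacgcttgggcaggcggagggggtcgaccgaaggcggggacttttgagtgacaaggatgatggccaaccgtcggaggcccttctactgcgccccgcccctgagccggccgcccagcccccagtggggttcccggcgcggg
The motif began 81 bases before the start in MBP, 10 in ZNF407 and 154 in ZNF532. Of these 3 genes, only MBP was called lower, as given below, and a match of letters is no evidence of binding.

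The libraries held between 18408134 and 25350908 counts, and replicates of a group correlated at 0.994 or more across genes against at most 0.985 between groups, where genes are not independent replicates. The FOXC1 transcript itself was present at higher values in libraries labelled as its knockout, with 18.4, 16.9 and 19.3 CPM (counts scaled to a common library total of 1e6) in control and 24.1, 22.2 and 21.1 CPM in KO libraries (log2 fold change 0.30, SE 0.091, not called). The label had been checked by Western blotting per the study's methods, and the paper reports less FOXC1 protein in the J82 knockout cells. A transcript count does not measure the protein. As the transcript was not lower here, the groups are called control and KO-labelled in what follows. The keratin genes KRT7, KRT8 and KRT18 were at 365 CPM or more in every library and the urothelial factors GATA3 and PPARG at 24.3 CPM or more, whereas KRT5, KRT20, UPK1A, UPK1B, UPK2 and UPK3A had at most 5 counts in any library.

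Most members could not be compared. Of the 234, 125 had 0 counts in all 6 libraries, which allows up to 0.118 to 0.163 CPM per library (3 counts, counting error only), and a further 63 had too few counts to be tested (a mean of at most 9.2). The 46 tested members comprised 37 of the 49 protein-coding genes and 9 of the 103 long noncoding RNA (lncRNA) genes, and none of the 48 processed pseudogenes or 8 miRNA genes. The protein-coding members left untested included the neural and endocrine genes MC4R, GALR1, GRP, CDH19 and CDH20 and the zinc finger gene SALL3. Passing the filter on low counts is easier for a gene that is high in either group, so the statements below cover the tested members only.

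The tested members were on the whole lower in the KO-labelled libraries, by a modest amount. Their median log2 fold change was -0.31, a level of 80.6% of control, with quartiles at -0.55 and -0.11. By comparison, the median of all 15647 tested genes was -0.001. Below zero were 38 of 46 members (82.6%), against 50.1% of all tested genes. At an adjusted p under 0.05 (edgeR) and a change of more than 1.3-fold, 15 members were called lower, where 8.39% of all tested genes were, and 1, RNF152, was called higher, where 7.57% were. All KO-labelled values lay below all control values in 27 members (20.8% of all tested genes) and above them in 3 (20.5%). In these bulk libraries, fewer cells that carry a transcript and less of it per cell cannot be told apart.

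**Figure D1:**
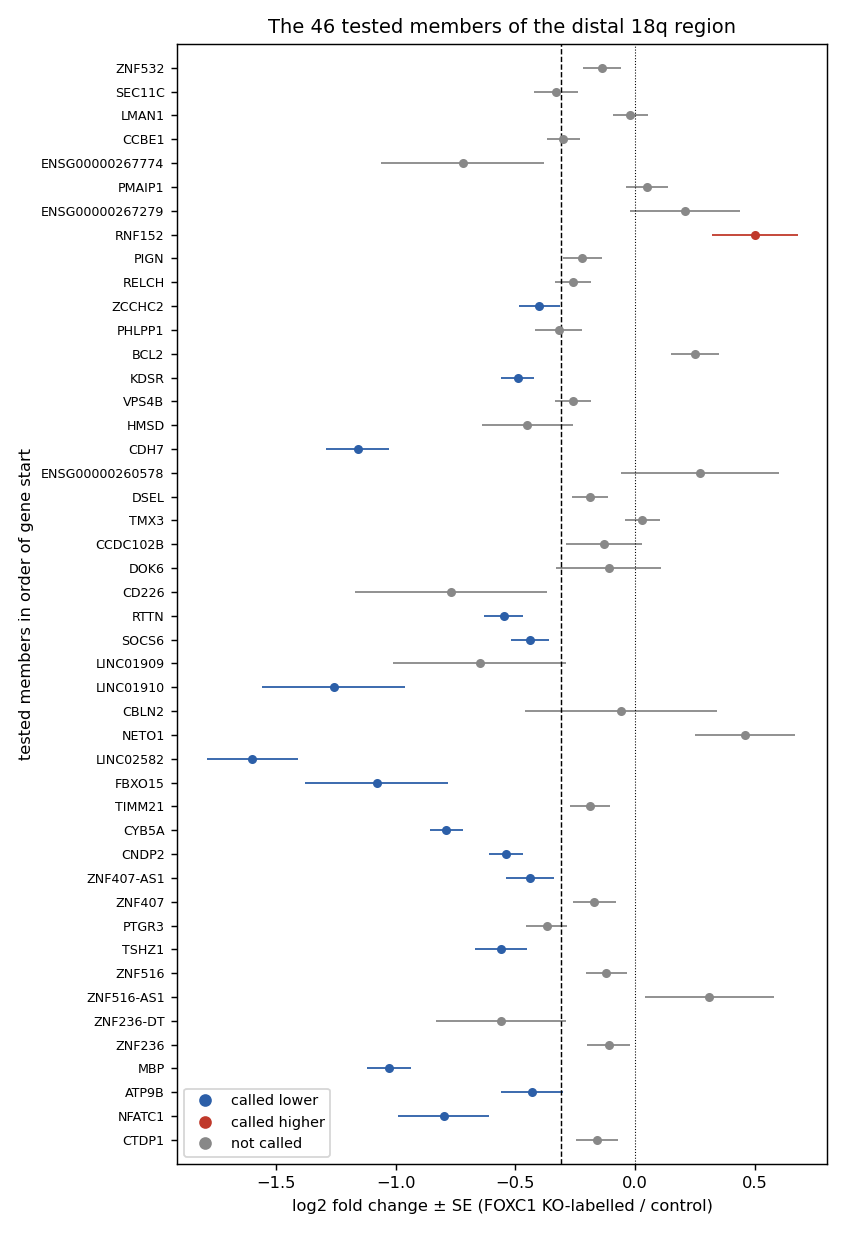
Log2 fold change between KO-labelled and control libraries (x axis) of the 46 tested members, listed from top to bottom in order of gene start (y axis), with bars for ±1 SE, blue for called lower, red for called higher, a dotted line at zero and a dashed line at the members' median of -0.31. Values ran from -1.60 for LINC02582 to 0.50 for RNF152, and 38 of the 46 points lie left of zero.

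The members' level in each library is given next, from the same libraries whose contrast had chosen the interval. For every tested member, log2 CPM was expressed relative to its mean over the control libraries, and the median over members was taken. This median was -0.041, 0.009 and 0.041 in the control libraries and -0.24, -0.33 and -0.28 in the KO-labelled libraries, replicates 1 to 3. The groups did not overlap, which follows in part from that choice, and KO replicate 2 was lowest. The members took 0.206%, 0.215% and 0.218% of all counts in the control libraries and 0.172%, 0.163% and 0.174% in the KO-labelled libraries. Over all tested genes the medians lay between -0.006 and 0.008 in the 6 libraries.

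**Figure D2:**
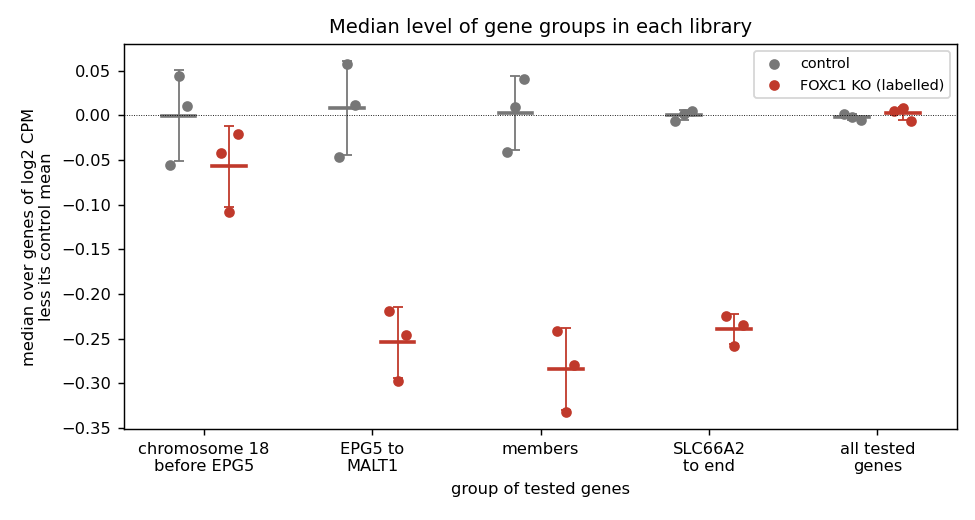
Median over genes of log2 CPM less its control mean (y axis) for 5 groups of tested genes (x axis), with a point per library, a line for the mean and bars for ±SD over the 3 libraries of a group. The KO-labelled libraries lie below the controls from EPG5 onwards, a border chosen by these same values. They lie at -0.24 to -0.33 for the members, whose interval was chosen by this contrast, and near zero over all tested genes.

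The members are described below in lists by role. Beside the counts of each list stand the shares over all tested genes, 50.1% below zero, 8.39% called lower and 7.57% called higher. Of the 5 tested genes of mitochondria and metabolism all were below zero and 2, CYB5A and CNDP2, were called lower. CYB5A (ENSG00000166347.14, chromosome 18, 71918081 to 71959208, minus strand) encodes cytochrome b5, which hands electrons to desaturases and cytochrome P450 enzymes. It was at 238, 241 and 240.4 CPM in control and 129, 141 and 145 CPM in KO-labelled libraries. Control values lay close together and well above all KO-labelled values, and CYB5A fell by 0.79 on the log2 scale (SE 0.069). CNDP2 (72163051 to 72190689, plus strand), which encodes a cytosolic dipeptidase, was the member with the highest CPM. It was at 369, 321 and 326 CPM in control and 237, 239 and 226 CPM in KO-labelled libraries, again without overlap, and its log2 fold change was -0.54 (SE 0.071). The other members of this list did not pass the fold change threshold. PTGR3, a reductase gene earlier named ZADH2, had a log2 fold change of -0.37, and TIMM21, a mitochondrial protein import gene, and DSEL, a gene of dermatan sulfate synthesis, both -0.19.

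The secretory pathway and membrane genes were less alike. Of 9 tested members 7 were below zero, 2 were called lower and 1 higher, with a median of -0.26. KDSR, a gene of sphingolipid synthesis, was at 120.4, 116 and 119 CPM in control and 84.5, 83.2 and 84.9 CPM in KO-labelled libraries, and it fell by 0.49 on the log2 scale (SE 0.069). ATP9B, a phospholipid flippase gene with low counts, was called lower as well (-0.43). SEC11C, a signal peptidase subunit (-0.33), RELCH (-0.26), VPS4B, an ATPase of the ESCRT machinery (-0.26), and PIGN, a gene of GPI anchor synthesis (-0.22), were not called. LMAN1, a cargo receptor between the endoplasmic reticulum and the Golgi, was at 231, 250 and 234 CPM in control and 236, 215 and 254 CPM in KO-labelled libraries. Its groups overlapped, and its log2 fold change was -0.02 (SE 0.072). TMX3, a disulfide isomerase gene of the endoplasmic reticulum, likewise overlapped (0.03, SE 0.074). RNF152, a lysosomal ubiquitin ligase gene, was at 1.83, 1.97 and 1.61 CPM in control and 2.56, 2.62 and 2.47 CPM in KO-labelled libraries (log2 fold change 0.50, SE 0.18), and this call was lost with DESeq2 and in 5 of 6 fits made without 1 of the libraries.

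Of the 6 genes of survival and signalling 4 were below zero, 2 were called lower and 0 higher. BCL2 (60790579 to 60987361, minus strand), the inhibitor of mitochondrial cell death, was at 10.1, 9.76 and 11.3 CPM in control and 12.6, 13.1 and 11.5 CPM in KO-labelled libraries. All 3 KO-labelled values lay above the controls, by a log2 fold change of 0.25 (SE 0.10) that was not called. PMAIP1, which encodes NOXA, an antagonist of BCL2 family survival proteins, overlapped between the groups with 87.6 to 111 and 87.7 to 114 CPM (log2 fold change 0.05, SE 0.089). SOCS6, a suppressor of cytokine and receptor kinase signalling, was called lower at 42.6 ± 3.65 CPM against 57.9 ± 2.32 CPM in control (SD, n = 3). NFATC1, a calcium-regulated transcription factor gene, was at 2.90, 3.53 and 2.60 CPM in control and 1.41, 1.83 and 1.87 CPM in KO-labelled libraries, and fell by 0.80 on the log2 scale (SE 0.19). PHLPP1, a phosphatase gene acting on AKT, had a log2 fold change of -0.32 and was not called. DOK6, an adaptor gene, was near zero (-0.11, SE 0.22).

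The listed zinc finger and other nuclear genes lay nearer to zero. All 6 tested members were below zero with a median of -0.15, and TSHZ1, a zinc finger homeobox gene, was the only one called lower, from 12.1 ± 0.788 to 8.27 ± 0.551 CPM (SD, n = 3). ZNF532 (-0.14), ZNF407 (-0.17), ZNF516 (-0.12), ZNF236 (-0.11) and CTDP1, a phosphatase gene for RNA polymerase II (-0.16), were not called. In 4 of these 5, all but ZNF236, the KO-labelled values were lower without overlap, where 20.8% of all tested genes were. The antisense transcript ZNF407-AS1 was called lower (-0.44). Because the strand setting of the counting was not given, reads in the stretch that it shares with ZNF407 (72265106 to 72266121) cannot be told apart. RTTN, a gene of centriole assembly, was at 41.6, 45.0 and 45.6 CPM in control and 30.1, 31.6 and 28.8 CPM in KO-labelled libraries, and fell by 0.55 on the log2 scale (SE 0.081). ZCCHC2, a zinc finger gene outside the list of nuclear genes and named through its call, was lower by 0.40 (SE 0.084).

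Of the 6 tested secreted, adhesion and neural genes 5 were below zero and 2, MBP and CDH7, were called lower, with values from -1.16 to 0.46. MBP (74690783 to 74845639, minus strand), known for the myelin basic proteins, was at 37.2, 33.4 and 38 CPM in control and 19.3, 15.7 and 18.3 CPM in KO-labelled libraries. Every KO-labelled value lay below the lowest control value, with a log2 fold change of -1.03 (SE 0.092), the only one below -1 among the 27 members with a mean of at least 10 CPM. CDH7 (63417488 to 63557573, plus strand), a cadherin gene, was at 7.76, 8.40 and 8.70 CPM in control and 3.64, 3.41 and 4.04 CPM in KO-labelled libraries, a log2 fold change of -1.16 (SE 0.13). CCBE1, a secreted regulator of lymphatic growth, was one of the strongly expressed members at 204 ± 1.95 CPM in control and 165 ± 8.22 CPM in KO-labelled libraries (SD, n = 3). Its log2 fold change of -0.30 (SE 0.068) was under the fold change threshold. CD226, a lymphocyte adhesion receptor gene (-0.77, SE 0.40), and CBLN2, a cerebellin gene (-0.06, SE 0.40), overlapped between the groups and were not called. NETO1, which encodes a partner of glutamate receptors, was at 1.74, 2.01 and 1.22 CPM in control and 2.12, 2.06 and 2.64 CPM in KO-labelled libraries. All its KO-labelled values lay above the controls, by a log2 fold change of 0.46 (SE 0.21) that was not called. Of the lncRNA genes, LINC02582 was at 3.44, 3.07 and 3.58 CPM in control and 1.20, 1.11 and 1.02 CPM in KO-labelled libraries, the lowest log2 fold change of all members (-1.60, SE 0.19). LINC01910 was called lower (-1.26, SE 0.30) although KO replicate 2 (1.03 CPM) lay above control replicate 1 (0.982 CPM). FBXO15, an F-box gene with a mean under 1 CPM, was called lower (-1.08, SE 0.30). The remaining tested members, none of them called, were HMSD (-0.45), CCDC102B (-0.13), ZNF236-DT (-0.56), LINC01909 (-0.65), ENSG00000267774 (-0.72), ENSG00000267279 (0.21), ENSG00000260578 (0.27) and ZNF516-AS1 (0.31), all with few counts. Counts are uncertain where genes overlap, which besides ZNF407 and ZNF407-AS1 applies to CCBE1 with ENSG00000267774, DOK6 with CD226, ZNF516 with ZNF516-AS1, and HMSD with a left-out gene.

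**Figure D3:**
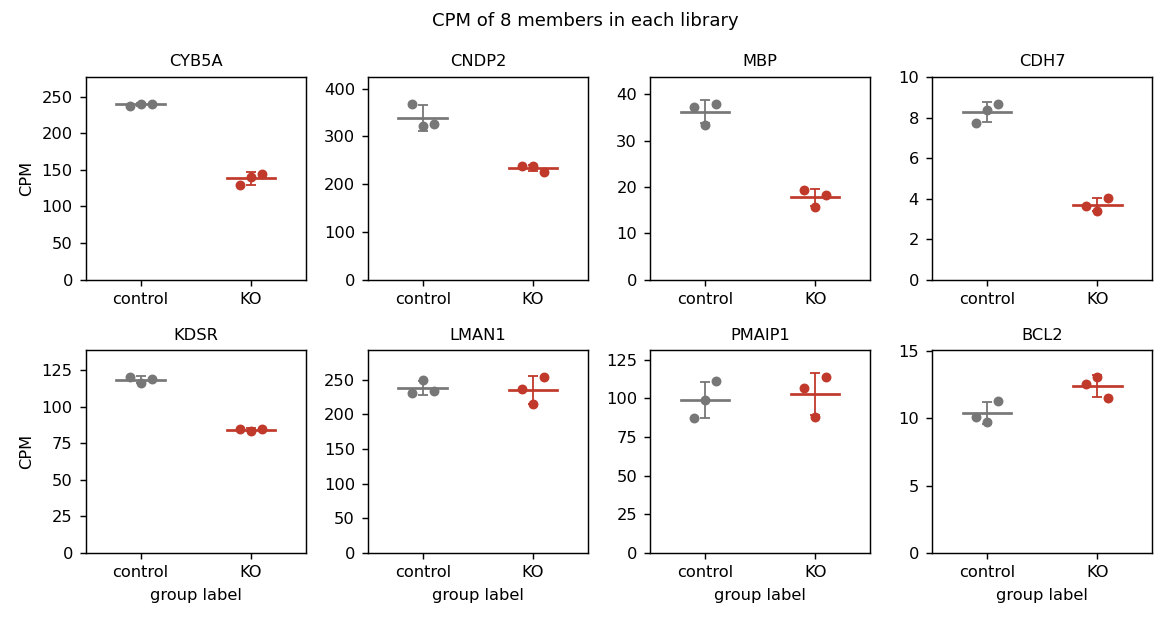
CPM (y axis, from 0) of 8 members in the control and KO-labelled libraries (x axis), with a point per library, a line for the mean and bars for ±SD over 3 libraries. The groups are apart in CYB5A, CNDP2, MBP, CDH7 and KDSR, overlap in LMAN1 and PMAIP1, and are apart in the other direction in BCL2.

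Per length of exon, PMAIP1 (46.2 RPKM, counts per kilobase of exon scaled as CPM), LMAN1 (39.0 RPKM), CCBE1 (26.1 RPKM), CNDP2 (24.2 RPKM) and CYB5A (20.4 RPKM) were the members with the highest levels. These levels are means over all 6 libraries. In log2 fold change they ranged from 0.05 (PMAIP1) to -0.79 (CYB5A), so that a high level did not go with a common difference.

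Whether the difference was uniform, as for genes scaled by a shared factor, was then described. In order of mean CPM, the 15 lowest tested members had a median log2 fold change of -0.56, the 15 in the middle -0.33 and the 16 highest -0.26. The interquartile range narrowed in the same order, from 1.02 to 0.30 and 0.28. Among the 27 members with a mean of at least 10 CPM, whose values are the most precise, the median was -0.26 and 24 were below zero. These 27 values had an SD of 0.27, while their median SE was 0.084. The same SD was 0.27 over the rest of chromosome 18 and 0.30 over all tested genes at this level. Of the 27, 16 (59.3%) lay within 2 SE of their own median. Around their own medians, 44.9% of the rest of chromosome 18 and 55.7% of all tested genes did so at this level. The members thus shared a lower centre, around which single genes were spread, by SD, about as widely as tested genes elsewhere. Protein-coding members (37, median -0.26) and lncRNA members (9, median -0.56) both lay below zero, and the lncRNA genes had the fewer counts. The GC content of the members (median 46%) was close to that of the rest of chromosome 18 (45.7%) and below that of all tested genes (49.0%). Direct neighbours could lie far apart, such as BCL2 (0.25) and KDSR (-0.49), or TIMM21 (-0.19) and CYB5A (-0.79).

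**Figure D4:**
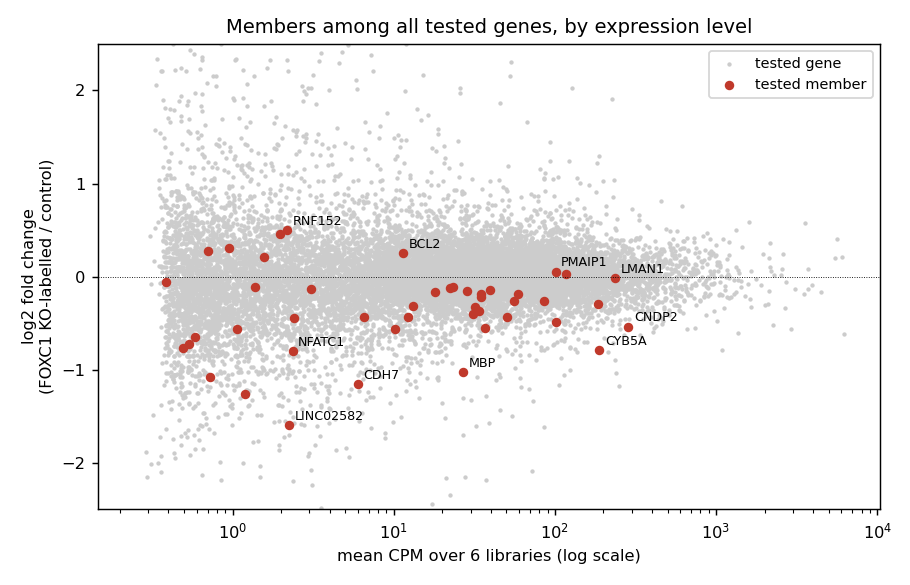
Log2 fold change (y axis) against mean CPM over 6 libraries (x axis, log scale) for all tested genes in grey and the 46 tested members in red. The y axis ends at ±2.5, beyond which lie 55 of the other tested genes. Members lie mostly below zero at every level, and scatter more widely under 10 CPM.

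The borders of the interval were examined next, against the rest of chromosome 18. The 3 tested genes just before the interval were ENSG00000267257 (log2 fold change -0.11), MALT1-AS1 (-0.45) and MALT1 (0.04), and the 3 just inside were ZNF532 (-0.14), SEC11C (-0.33) and LMAN1 (-0.02). At the other border, ATP9B (-0.43), NFATC1 (-0.80) and CTDP1 (-0.16) lay inside, and SLC66A2 (-0.29), HSBP1L1 (-0.86) and TXNL4A (-0.31) lay outside. At the proximal border, ENSG00000267257 (SE 0.29) and MALT1-AS1 (SE 0.31) had means under 1 CPM, so these genes cannot decide on a step there. The well expressed genes before that border are given in the next paragraph. No step was visible at the distal border. The 8 tested genes from SLC66A2 to the end of the chromosome had a median of -0.25, with 7 (87.5%) below zero. Only HSBP1L1 (12.5%) was called lower. Over all tested genes, 50.1% were below zero and 8.39% called lower. The medians of these 8 genes per library were -0.006, 0.002 and 0.005 in control and -0.23, -0.26 and -0.24 in KO-labelled libraries.

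Toward the centromere, the values returned to zero only for a short way. From ATP8B1 (0.16) over NEDD4L (0.14) and ALPK2 (0.14) to MALT1, well expressed genes lay at or above zero, and the running median over 9 genes from FECH to MALT1 was 0.043. Directly before these lie TXNL1 (-0.21), WDR7 (-0.30), ONECUT2 (-0.17), FECH (-0.28) and NARS1 (-0.16), none of them called. The lncRNA genes between TCF4 and ATP8B1, all under 1 CPM, were not called either, and of them only ATP8B1-AS1 (0.20) lay above zero. Further toward the centromere lie the tested genes with starts from 51.68 to 52.89 Mb, picked after their values were seen. MBD2, a methyl-CpG binding protein gene (-0.42), RAB27B (-0.42), CCDC68 (-0.90), C18orf54 (-0.39) and TCF4, a helix-loop-helix factor gene (-0.40), were called lower. POLI, a DNA polymerase gene (-0.22), and SNRPGP2 (-0.22) overlapped between the groups and were not called. Over all tested genes, 8.39% were called lower. The split of the chromosome into an inner and an outer level with the least absolute deviation placed the lower stretch between EPG5 (43.38 Mb) and ADNP2 (77.87 Mb). It held 103 of 244 tested genes with a median of -0.28, against -0.054 outside. The 2 levels lowered the summed absolute deviation from 75.91 to 70.95, so most of the spread between genes remained. The 51 tested genes from EPG5 up to MALT1 had a median of -0.28, with 43 below zero. Called lower were 10 (19.6%) and higher 0, against 8.39% and 7.57% of all tested genes. EPG5 was found by a search of these same values, so a lower level from it onwards follows in part from that choice. The same holds for the level nearer zero before it, and a split into 2 levels can only lower the summed deviation.

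**Figure D5:**
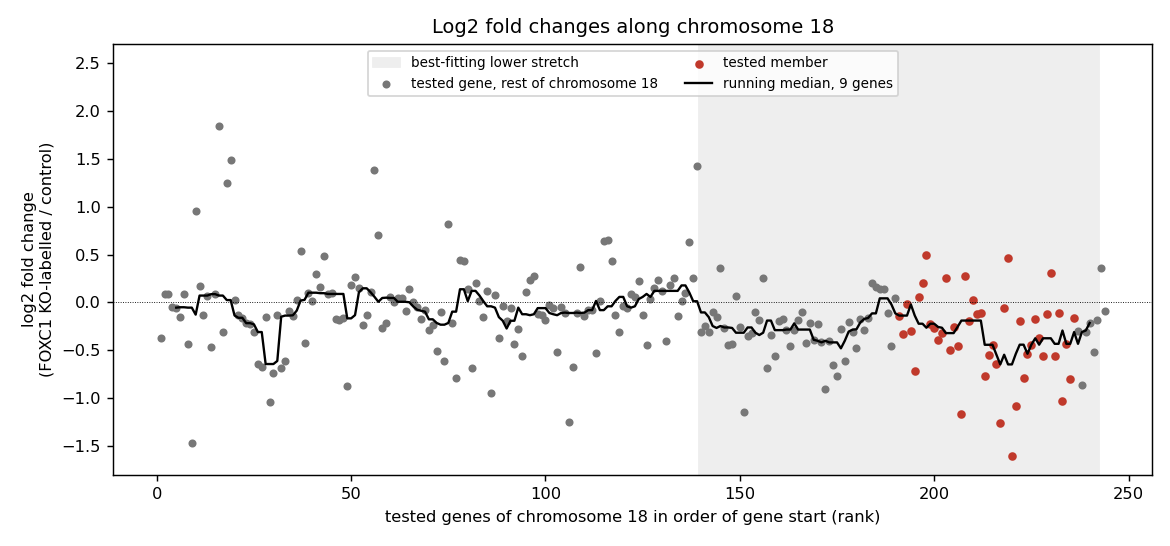
Log2 fold change (y axis) of the 244 tested genes of chromosome 18 in order of gene start (x axis, rank), with members in red, the running median over 9 genes as a line and the best-fitting lower stretch shaded. The line lies near zero over much of the left part and mostly below it from EPG5 (43.38 Mb) on, reaching -0.65 among the members and rising to 0.043 just before them.

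The remainder of the chromosome lay closer to zero, with exceptions. The 60 tested genes of the long arm before EPG5 had a median of -0.042, with 33 below zero, 8 (13.3%) called lower and 3 (5.0%) higher. The 79 of the short arm had a median of -0.085, with 44 below zero, 9 (11.4%) called lower and 10 (12.7%) higher. For all 198 tested genes outside the interval the median was -0.13, with 28 (14.1%) called lower and 13 (6.57%) higher. Over all tested genes these shares were 8.39% and 7.57%. Per library, the genes before EPG5 had medians of -0.056, 0.044 and 0.011 in control and -0.042, -0.11 and -0.021 in KO-labelled libraries, which overlapped. The running medians centred on the 46 tested members were all below zero, as were 171 of the 236 on the whole chromosome, and neighbouring windows share genes. They ranged from -0.021 around CCBE1, in the window from MALT1 to RNF152, to -0.65 around LINC01910, in the window from CD226 to FBXO15, which holds several genes with few counts. A window as low was present on the short arm, from DLGAP1-AS2 (3.60 Mb) to ARHGAP28 (6.73 Mb), at -0.64.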

How the data were processed

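Raw read counts per gene had been deposited as a single table. Per the study's methods and the labels, the authors had aligned paired 75 base reads to hg19 with STAR and assigned them to GENCODE version 19 genes with featureCounts of Subread, and tool versions, strand and multi-mapping settings were not given in the sources used here. All 57820 rows named a gene, and 0 columns belonged to other samples. Symbols, types and gene starts were taken from GENCODE version 44 mapped to GRCh37 (the assembly of hg19), which matched 55538 identifiers (96.05%), and 2282 unmatched rows could not be placed. The start is the lower coordinate of a gene. Groups came from the sample titles, and each column matched 1 title. Replicates were distinct libraries (chi-square per gene within groups 2.95 to 10.1).

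In R 4.3.3, low counts were removed by filterByExpr (edgeR 4.0.16) and groups compared with TMM and the robust quasi-likelihood F test, with Benjamini-Hochberg adjustment over all tested genes. Standard errors were derived from the F statistic. CPM used TMM-scaled library sizes, and RPKM used merged exon lengths. The fit was tested on simulated counts. Called genes had an adjusted p under 0.05 and more than 1.3-fold change, after the study's methods, whose DESeq2 was an alternative (1.42.0). The best-fitting stretch on chromosome 18 could lie higher or lower than the rest, with at least 10 tested genes inside and 10 outside. GC trends were removed with loess (span 0.3).

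The members, role lists, tests and alternatives were chosen with earlier results of these data known. Named were FOXC1, the 3 tested genes on either side of each border, called members with a mean of at least 1 CPM, the 10 members with the highest CPM, and role list members. FBXO15, EPG5, the genes named between MBD2 (51.68 Mb) and ALPK2 and the marker genes were named after their values were seen.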

Additional observations from a re-analysis of the deposited data

How the results depend on the processing

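The direction of the members' median held under every alternative, and its size depended on which members were summarised. The median log2 fold change was -0.14 with no filter on low counts, which admits 109 members, and the rest of chromosome 18 was then at the same value (-0.14), so that the difference between them was no longer seen. It was -0.26 both for protein-coding members and for members with a mean of at least 10 CPM, a setting chosen after seeing the data. With each library left out in turn it lay between -0.36 and -0.26, and it was -0.30 after removal of a GC trend, also added later. The SD over members was 1.26 with no filter, 0.39 with a mean of at least 50 counts, 0.37 for protein-coding members and 0.27 with at least 10 CPM. Members below zero numbered 61 of 109 with no filter, against 38 of 46 in the main fit. Members called lower ranged from 12 to 19 across the fits that left out 1 library. Members called higher ranged from 0 to 2 across these fits and numbered 0 with DESeq2. A border at EPG5 was found under every setting tried for it but 1. With no filter the best-fitting stretch was 10 low-count genes between RPS26P54 (57.43 Mb) and MC4R (58.04 Mb), at 1.13. With at least 10 CPM the split lay between PIK3C3 (39.54 Mb) and EPG5, its neighbour among the genes kept, with the 80 genes up to PIK3C3 at -0.040 and the others, from EPG5 to ADNP2, at -0.26. These settings differ by construction in the genes they keep, and otherwise the cause was not tested. Single genes near zero changed sign across the fits that left out 1 library, within -0.33 to 0.07 for ENSG00000267257, -0.05 to 0.10 for MALT1, -0.08 to 0.03 for LMAN1, -0.04 to 0.15 for PMAIP1, -0.03 to 0.07 for TMX3, -0.22 to 0.02 for DOK6 and -0.19 to 0.14 for CBLN2. Over all settings, 81 summary values stayed close to those reported and 18 moved.

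Replicate numbers did not pair the libraries (correlations of deviations -0.027, -0.072 and 0.050). With the number as a block, 16 members were called lower and the median stayed at -0.31. Values under 1 CPM rest on few counts and have the largest standard errors.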

Other observations

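Among the medians of 23 chromosomes (the autosomes and X), chromosome 18 had the lowest log2 fold change at -0.15 over 248 tested genes, left-out genes included. Chromosomes 8 (-0.12), 9 (-0.10) and 12 (-0.10) followed, and chromosomes 22 (0.12) and 6 (0.11) had the highest. The value for chromosome 18 follows in part from the choice of the interval by this contrast. Its tested genes outside the interval had a median of -0.13.

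Within the lower stretch but outside the interval, the SMAD genes SMAD2 (-0.26), SMAD4 (-0.18) and SMAD7 (-0.32), which carry and damp signals of the TGF-beta family, lay below zero and were not called. ATP5F1A, a subunit of mitochondrial ATP synthase, was at -0.31 (SE 0.067), also under the fold change threshold. These genes were picked after their values were seen.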
